A study of Arabidopsis thaliana with 2 samples.

Results

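The 10 arabinogalactan protein (AGP) genes described here are AGP1 (AT5G64310), AGP4 (AT5G10430, also called JAGGER), AGP12 (AT3G13520), AGP14 (AT5G56540), AGP15 (AT5G11740), AGP16 (AT2G46330), AGP18 (AT4G37450), AGP20 (AT3G61640), AGP21 (AT1G55330) and AGP22 (AT5G53250). They were taken by locus from a table of 33557 genes with values, all 10 were found there, and none was listed at 0 in either library. RNA was sequenced from mature ovules of Arabidopsis thaliana of 2 genotypes, 1 library each. The control, labelled wild-type, was unpollinated ms1, a male-sterile line used in place of true wild-type plants. The other library was from myb98, a mutant of the synergid transcription factor gene MYB98. For both, flowers at floral stage 12 had their stamens removed, and the ovules of about 50 pistils were pooled by hand dissection 36 hours later. The myb98 allele, the background of either line and the plants' age were not given in the sources used here. Line and genotype differ together between the libraries, so their effects cannot be told apart.

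AGPs are cell-surface and wall glycoproteins rich in proline, alanine, serine and threonine. Enzymes hydroxylate the prolines and build large arabinose- and galactose-rich sugar chains on them, and many AGPs are held in the plasma membrane by a glycosylphosphatidylinositol (GPI) lipid anchor. In ovules, JAGGER is known to be needed for the remaining synergid to degenerate after fertilization, which stops further pollen tubes from entering, and AGP18 is known to be needed for selection of the functional megaspore. AGP1, AGP4 and AGP18 are classical AGPs with a long protein backbone. AGP12, AGP14, AGP15, AGP16, AGP20, AGP21 and AGP22 are AG-peptides, whose mature backbone is only a short stretch of residues.

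That stretch is visible in the coding sequence. The longest unbroken run of codons for proline, alanine, serine or threonine is shown for 6 of the AG-peptides, read on the coding strand from the TAIR10.1 genome with the RefSeq annotation, because it is the part that carries the sugar chains and the feature these genes share. Among 27480 annotated coding sequences, the median longest run was 4 codons, and 3.56% had a run of 10 or more. Capitals mark proline codons.
AGP12: gctCCGgctCCAagtCCTacttcc
AGP14: gctCCCgcgCCTagcCCTacctcc
AGP15: gcaCCAgcaCCAagtCCTacttct
AGP21: gctCCAgctCCAagcCCAacttct
AGP16: gctCCAgctCCTgctCCCaccagc
AGP22: tcttcttcgCCAgctCCCgcaCCCaccagc
The run had 8 codons in 5 of these 6 genes and 10 in AGP22, with 3 proline codons in each, every one of them preceded by an alanine or serine codon. Over the last 8 codons, the 6 genes had the same base at 11 of 24 positions, no codon was the same in all 6, and the last base varied in all 8 codons. Pairs of genes shared between 12 and 20 of the 24 bases. On the plus strand the runs lie at chr3:4409177-4409200 (AGP12), chr5:22893333-22893356 (AGP14), chr5:3784393-3784416 (AGP15) and chr5:21603799-21603828 (AGP22). On the minus strand they lie at chr1:20648703-20648726 (AGP21) and chr2:19018998-19019021 (AGP16).

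The classical genes carried longer backbones. JAGGER has a run of 28 such codons with 12 prolines, shown because it is the gene of the set with a known part in synergid degeneration, and AGP18 has a run of 13 with 4 prolines.
AGP4: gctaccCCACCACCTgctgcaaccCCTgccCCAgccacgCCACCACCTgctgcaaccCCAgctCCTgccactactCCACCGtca
AGP18: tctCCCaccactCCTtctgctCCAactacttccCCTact
The run lies at chr5:3278014-3278097 on the minus strand for AGP4 and at chr4:17606606-17606644 on the minus strand for AGP18. AGP1 has no run longer than 9 codons, but 59.5% of its codons were for these 4 amino acids, against 72.6% in AGP4, 53.6% in AGP18, 38.1% to 50.8% in the AG-peptides and a median of 24.9% over 27480 annotated coding sequences. Lysine codons made up 5.76% of AGP18, which is known as a lysine-rich AGP, and 3.45% or less of each of the other 9 genes.

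**Figure D1:**
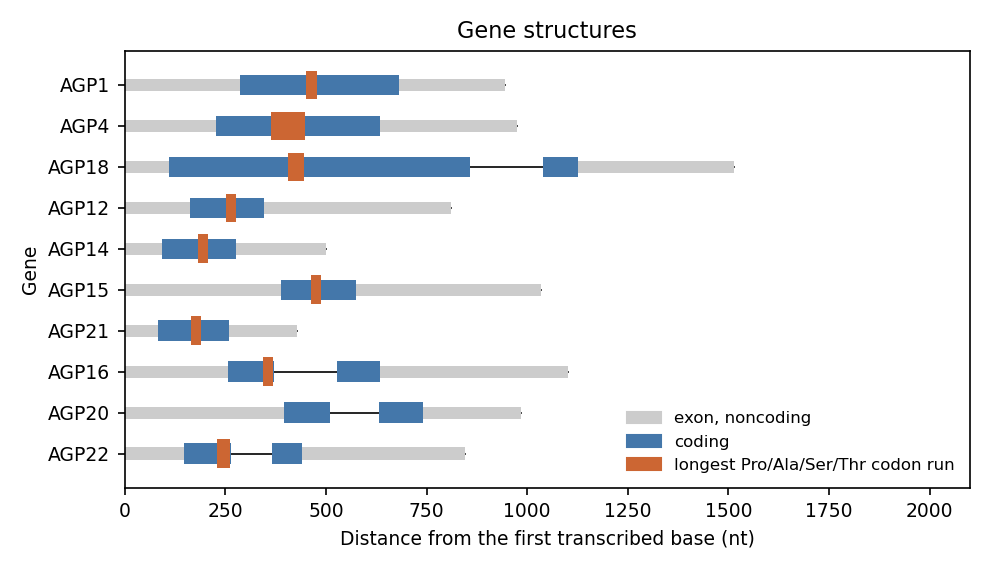
Structure of the longest annotated transcript of each gene, drawn to scale as distance from its first transcribed base in nt. Grey is noncoding exon, blue is coding, orange is the longest run of proline, alanine, serine or threonine codons, and a thin line is an intron. The run is not drawn for AGP20. AGP16 and AGP22 have an intron that begins 4 bases after the run.

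Gene structure split the AG-peptides. AGP12, AGP14, AGP15 and AGP21 have 1 exon, while AGP16, AGP20 and AGP22 have 2 in their longest transcript, and in AGP16 and AGP22 the first exon ends 4 bases after the run (introns of 157 and 101 nt). Coding sequences of AGP16 and AGP20 were 84.2% identical over their alignment and those of AGP12 and AGP21 76.6%. AGP15 had no such close partner, at 53.1% to 58.7% identity to the other 6 AG-peptides. Some pairs of a 1-exon and a 2-exon gene were no closer, such as AGP14 and AGP20 at 50.2%. A BLAST search at an E-value of 1e-05 matched the transcript of AGP15 to that of no other gene, as was so for AGP1. The coding part of AGP15 is 186 nt of a 1034 nt transcript.

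Expression is given in FPKM, a fragment count corrected for transcript length and library size, so levels can be compared between genes. With 1 library per genotype there is no replicate error, and no difference below was tested. Ratios are given as plain ratios of FPKM and as the log2 ratio, log2((myb98 FPKM + 1)/(wild-type FPKM + 1)). The 2-fold and 4-fold rules used below refer to this log2 ratio and were applied to expressed genes, so a low gene can have a plain ratio above 2 and not pass. A gene was counted as expressed at 1 FPKM or more in either library, which held for 16303 genes. Of these, 5.69% passed 2-fold and 0.994% passed 4-fold, in either direction. In whole ovules, fewer cells of a type and less RNA per cell cannot be told apart. Depth, estimated from the smallest values in the table, was about 47800000 fragments for wild-type and 42400000 for myb98. MYB98 itself was at 1.35 FPKM in wild-type and 0.474 FPKM in the library labelled myb98. Of the 5 synergid markers, MYB98 among them, 3 were at least 4-fold lower in myb98 (LURE1.2, LURE1.3 and AT1G47470), while LRE was at 0.769 and 1.36 FPKM, and their summed level was 440 and 2.47 FPKM. All 5 ovule and integument markers were expressed in both libraries, and 0 passed 2-fold. In myb98, 2 of them were higher and 3 lower, with a median log2 ratio of -0.06. STK, an ovule identity gene, was at 106 and 123 FPKM and ANT at 9.75 and 11.3 FPKM. SHP1 was at 40.1 and 29.1 FPKM, BEL1 at 4.94 and 3.47 FPKM and INO at 29.6 and 28.4 FPKM. The 4 pollen markers were at 1.28 FPKM or less. Of the 5 carpel markers 3 were expressed, 1 lower in myb98 and 2 higher (median log2 ratio 0.20). ALC was at 51.0 and 36.9 FPKM, SPT at 2.29 and 3.33 FPKM and NTT at 0.750 and 1.01 FPKM. CRC was listed at 0 and at 0.108 FPKM, and HEC1 at 0 in both libraries. The summed level of the 5 markers, 54.0 and 41.4 FPKM, was mostly that of ALC. The 3 central cell markers were expressed at 1.13 to 1.67 FPKM, and 0 of them passed 2-fold.

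**Figure D2:**
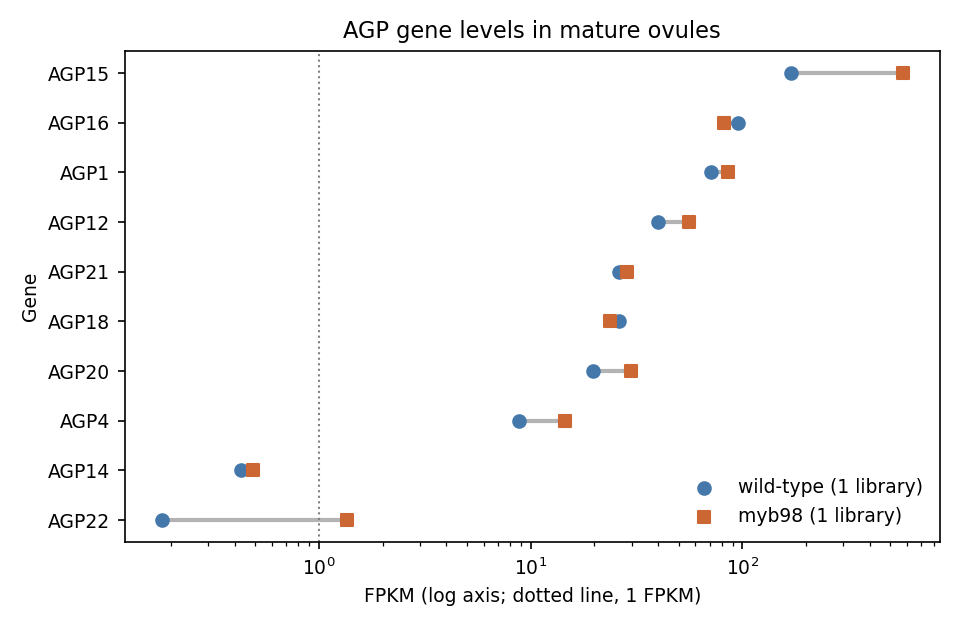
FPKM (log axis) of the 10 AGP genes in the wild-type library (circles) and the myb98 library (squares), 1 library each. AGP15 has the widest gap among the abundant genes (170 and 572 FPKM), and AGP14 and AGP22 lie at or near 1 FPKM or below.

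Levels of the 10 genes differed widely within a library. In wild-type ovules AGP15 was the most abundant at 170 FPKM, followed by AGP16 at 95.8, AGP1 at 71.2 and AGP12 at 39.7 FPKM. AGP21, AGP18 and AGP20 lay close together at 26.3, 26.1 and 19.8 FPKM, JAGGER was at 8.83 FPKM, and AGP14 and AGP22 were at 0.427 and 0.182 FPKM. In the myb98 library AGP15 was again first, at 572 FPKM, but AGP1 (85.6 FPKM) stood above AGP16 (82.2 FPKM), AGP20 (29.7 FPKM) stood above AGP21 (28.6 FPKM) and AGP18 (23.8 FPKM), and AGP22 (1.35 FPKM) stood above AGP14 (0.491 FPKM). With no replicates, the order of such close neighbours has no error attached to it.

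AGP15 had the largest difference in FPKM. It is transcribed from the plus strand of chromosome 5, at 3783930 to 3784963, and no annotated exon of another gene overlaps it. Wild-type ovules had 170 FPKM of its transcript and myb98 ovules 572 FPKM, 3.36-fold more, a log2 ratio of 1.74. From the estimated depth, about 8396 and 25048 fragments lie behind these levels. AGP15 went from rank 114 to rank 13 among expressed genes, and only 83 of the 16303 expressed genes had a higher log2 ratio. Of 2027 genes that reached 20 FPKM in both libraries, 3 had a ratio as high, AGP15 included. Against the 500 expressed genes closest to it in transcript length, whose median log2 ratio was 0.21, the ratio was 1.53. Of the 3 egg cell markers, 2 were higher in the same library and 1 was lower. EC1.5 was at 24.3 and 56.8 FPKM in wild-type and myb98 (log2 ratio 1.19, past 2-fold), EC1.2 at 23.3 and 33.0 FPKM and EC1.1 at 68.9 and 62.7 FPKM, and the summed level of these 3 markers was 116.5 and 152 FPKM. The transcripts of these markers are short, at 402 to 682 nt, and their ratios were not set against genes of that length. Genes near the 427 nt of AGP21 had a median log2 ratio of 0.40. The part of egg cells in the AGP15 difference was not tested.

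This difference changed the make-up of the set. The summed FPKM of the 10 genes was 458 for wild-type and 894 for myb98, 1.95-fold higher, and without AGP15 it was 288 and 322, 1.12-fold higher. AGP15 made up 37.1% of the sum in wild-type ovules and 64.0% in myb98 ovules. The share of AGP16 was 20.9% and 9.20%, and that of AGP1 15.5% and 9.58%. AGP15 had 2.39 times the FPKM of AGP1 in wild-type ovules and 6.68 times in myb98 ovules, and against AGP16 it had 1.77 and 6.95 times. Shares and ratios within a library do not depend on how the libraries were scaled to each other.

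**Figure D3:**
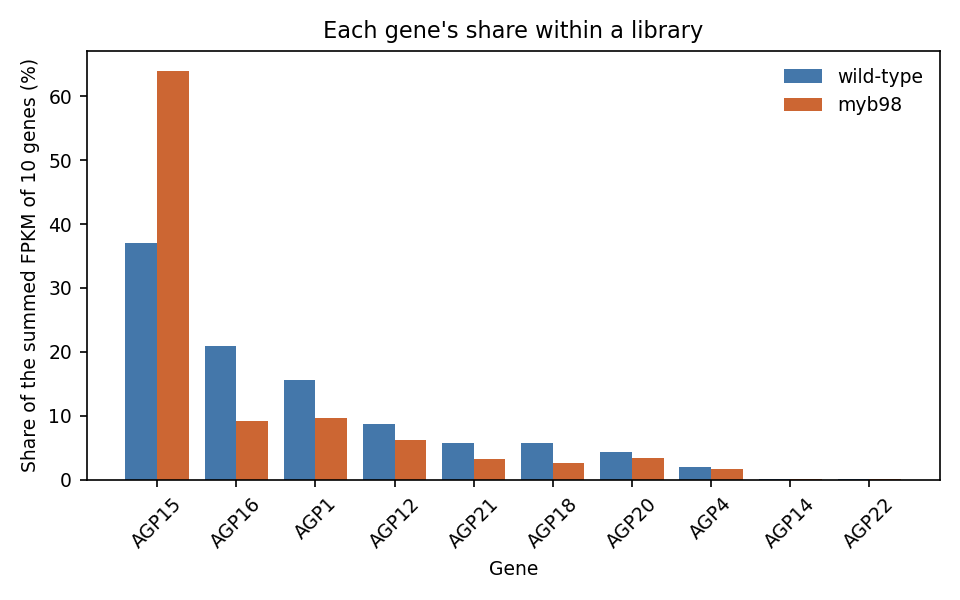
Share of the summed FPKM of the 10 AGP genes held by each gene, in percent, in the wild-type library (blue) and the myb98 library (orange). AGP15 goes from 37.1% to 64.0%, and each of the other genes except AGP22 holds a smaller share in myb98.

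Of the 3 classical AGPs described here, JAGGER had the largest log2 ratio. It lies on chromosome 5 at 3277488 to 3278461, minus strand, in 1 exon. Its level was 8.83 FPKM in wild-type ovules and 14.5 FPKM in myb98 ovules, 1.65-fold higher (log2 ratio 0.66, or 0.42 against genes of its transcript length). That is within 2-fold. The annotated gene AT5G10435, on the opposite strand, shares 405 exon bases with it, 41.6% of the JAGGER exon, and has no value in the table used here. Strandedness of the libraries: not given in the sources used here. Without it, reads of that stretch cannot be assigned to either gene.

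AGP18 and AGP1 differed less. AGP18, on chromosome 4 at 17605538 to 17607050, minus strand, was at 26.1 and 23.8 FPKM in wild-type and myb98 (ratio 0.910, log2 ratio -0.13). AGP18 is read from 2 exons, and 2 transcripts are annotated. AGP1, on chromosome 5 at 25721733 to 25722678, plus strand, was at 71.2 and 85.6 FPKM (log2 ratio 0.26). Set against genes of its transcript length, the AGP1 ratio was 0.03 and the AGP18 ratio was -0.22 on the log2 scale.

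The single-exon AG-peptides other than AGP15 differed less. AGP12, on chromosome 3 at 4408925 to 4409734, plus strand, was at 39.7 FPKM in wild-type and 55.7 FPKM in myb98. It was 1.40-fold higher in myb98 (log2 ratio 0.48, or 0.14 against genes of its transcript length). Its closest relative AGP21, which is known to act in root hair development, lies on chromosome 1 at 20648465 to 20648891, minus strand, and was at 26.3 and 28.6 FPKM, 1.09-fold higher (log2 ratio 0.12). AGP12 had 1.51 times the FPKM of AGP21 in wild-type ovules and 1.95 times in myb98 ovules. Of the AGP21 exon, 85.2% is shared with AT1G55335 on the opposite strand, which has no value in the table used here, so its reads are likewise uncertain. AGP21 has a transcript of only 427 nt, and genes of that length had a median log2 ratio of 0.40, which turns the AGP21 value to -0.29 against them.

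AGP14, a gene known for a role in root hair growth, was low in both libraries. It lies on chromosome 5 at 22893151 to 22893651, plus strand, and was at 0.427 and 0.491 FPKM, which is about 10.2 and 10.4 fragments. It did not reach 1 FPKM in either library and was not counted as expressed. AGP12, whose coding sequence is 68.6% identical to that of AGP14, was 93.0 times as high in wild-type ovules and 113 times as high in myb98 ovules.

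Of the 2-exon AG-peptides, 0 of 3 passed 2-fold with the pseudocount of 1, beside 5.69% of all expressed genes. A count of 0 among 3 is not read as a departure from that share. AGP16, on chromosome 2 at 19018264 to 19019364, minus strand, was at 95.8 and 82.2 FPKM (ratio 0.858, log2 ratio -0.22, or -0.45 against genes of its transcript length). AGP20, on chromosome 3 at 22810041 to 22811024, minus strand, was at 19.8 and 29.7 FPKM (log2 ratio 0.56, or 0.25 against genes of its length). AGP16 therefore had 4.84 times the FPKM of AGP20 in wild-type ovules and 2.77 times in myb98 ovules. The opposite-strand gene AT2G46320 shares 228 bases with the 944 nt transcript of AGP16, 24.2% of it, and was itself at 2.23 and 2.12 FPKM, far below AGP16.

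AGP22 had the largest plain ratio, from the lowest level. Its locus spans 21603569 to 21604414 on the plus strand of chromosome 5. It was at 0.182 FPKM in wild-type ovules and 1.35 FPKM in myb98 ovules, a ratio of 7.44, which rests on an estimated 6.46 and 42.7 fragments. The log2 ratio with the pseudocount of 1 was 0.99, just short of 2-fold, and 2.89 without a pseudocount, which is past 4-fold. Against genes of the AGP22 transcript length, the value with the pseudocount of 1 was 0.64. AGP22 was counted as expressed only through the library in which it was high. AGP16 had 528 times its FPKM in wild-type ovules and 60.8 times in myb98 ovules.

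By size alone, 1 of the 9 expressed genes, AGP15, was at least 2-fold higher in myb98 (log2 ratio of 1 or more), 0 were at least 2-fold lower and 8 were within 2-fold. Over all expressed genes, 2.95% were at least 2-fold higher and 2.74% at least 2-fold lower, 5.69% in all. Of the 9, 0 reached 4-fold, which 0.282% of all expressed genes did upward and 0.712% downward, 0.994% in all. A count of 1 among 9 is not read as a departure from these shares. Of all 10 genes, 8 had a log2 ratio above 0 and 2 below 0 (AGP16 and AGP18), with a median of 0.37. Of the 9 expressed genes 7 were above 0, with a median of 0.48, but AGP22 is among them only through its myb98 level, and with expression set at 5 FPKM the count was 6 of 8 and the median 0.37. Over all expressed genes 8079 of 16303 were above 0, with a median of 0.00 and an interquartile range of -0.28 to 0.29, and among genes at 20 FPKM or more in both libraries 1384 of 2027 were above 0. The direction of the 10 genes is therefore not read as particular to them.

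The log2 ratio ran with transcript length over all genes, and AGP transcripts are short, at 427 to 1334 nt. The 500 expressed genes nearest in length to each AGP gene had medians between 0.09 and 0.43. With those subtracted, the median of the 9 genes was 0.14, with 6 above 0 and 3 below. The 2027 genes at 20 FPKM or more in both had a median of 0.18 with no such step. The part of length in the AGP ratios was not tested further.

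**Figure D4:**
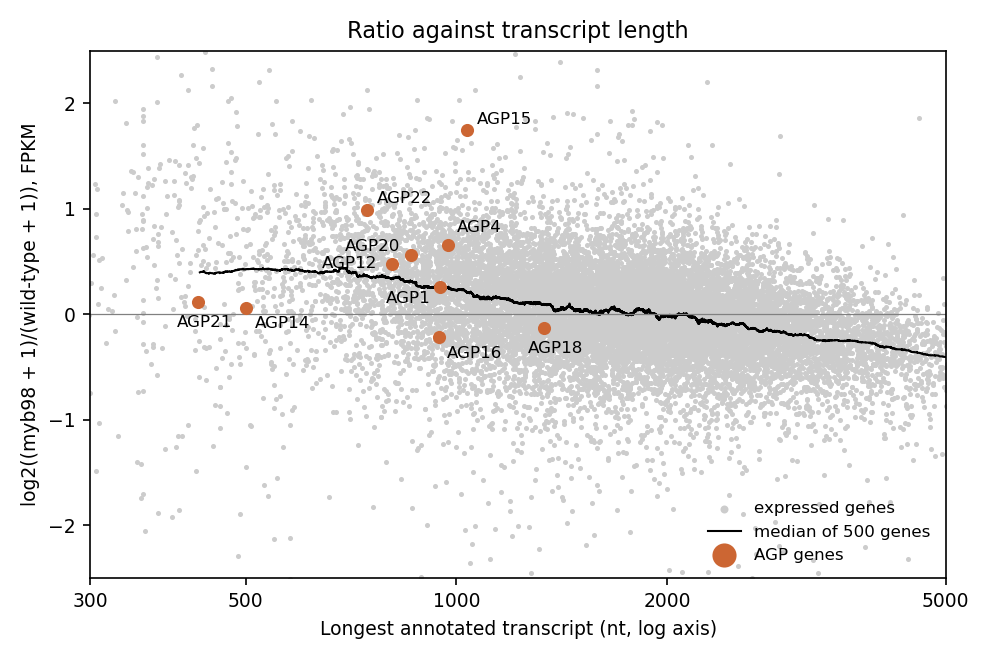
Log2 ratio of myb98 to wild-type (FPKM + 1) against the length of the longest annotated transcript (log axis, nt) for expressed genes (grey, those within the plotted range), with the running median of 500 genes (black line) and the 10 AGP genes (orange). AGP15, at 1.74, lies far above the line, AGP1 lies on it, and AGP14, AGP16, AGP18 and AGP21 lie below it.

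MYB98 is known to bind DNA at GTAACNT. The window from 250 bases before to 50 bases after the gene start was searched for it on both strands, and 2 of the 10 genes held it once, JAGGER and AGP21. It was found in 12.9% of the same windows of 27443 protein-coding genes. The surroundings of both matches, with the motif or its reverse complement in capitals, are shown in the direction of the gene because these are the AGP genes with such a match.
AGP4: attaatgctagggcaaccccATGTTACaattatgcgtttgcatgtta
AGP21: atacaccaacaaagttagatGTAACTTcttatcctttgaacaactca
The stretches lie at chr5:3278437-3278483 and chr1:20649088-20649134 (TAIR10.1), both on the minus strand. Counted from the annotated gene start, the first motif base is at -2 in JAGGER and at -223 in AGP21. The log2 ratios of these genes were 0.66 and 0.12, the latter -0.29 against genes of the AGP21 transcript length, and AGP15 held no match in its window.

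Other AGP genes put these levels in context. Among the 30 AGP-named loci of all lists, AGP15 ranked 2nd behind AGP9 in the wild-type library and 1st in the myb98 library. AGP9, a classical AGP, was at 408 and 400.5 FPKM. The list drawn up as other classical AGPs held 13 genes and also took in AGP30 and AGP31, which are non-classical AGPs. Of these 13 genes 9 were expressed, AGP31 among them. Of the 9, 0 passed 2-fold in either direction on the log2 ratio scale (median 0.22), beside 5.69% of all expressed genes. The largest ratios there were those of AGP26 (3.41 and 6.93 FPKM, a plain ratio of 2.03 and a log2 ratio of 0.85), AGP25 (11.6 and 6.33 FPKM, log2 ratio -0.78) and AGP27 (2.77 and 1.42 FPKM, log2 ratio -0.64). Of 4 other AG-peptide genes 1 was expressed, AGP24, at 17.5 and 21.6 FPKM, while AGP40 was at 0.0631 and 0.425 FPKM and AGP41 was listed at 0 and at 0.112 FPKM. The 6 pollen AGP genes, among them AGP6, AGP11 and AGP23, were all at 0.425 FPKM or less, the highest being AGP40, with AGP6 at 0.120 and 0.203 FPKM and AGP23 listed at 0 and at 0.0957 FPKM.

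Fasciclin-like AGPs, which join AGP stretches to cell-adhesion domains, and the enzymes that modify AGPs had 0 expressed genes past 2-fold on the log2 ratio scale. Among all expressed genes 5.69% passed 2-fold. In lists this small, a count of 0 is not read as a departure from that share. Of 21 fasciclin-like genes 12 were expressed and 0 passed 2-fold (median log2 ratio -0.08). FLA8, the most abundant, was at 142 and 117 FPKM, FLA7 at 18.2 and 28.2 FPKM (log2 ratio 0.60), and AT1G15190 and FLA16 had log2 ratios of -0.30 and -0.28. Among 3 prolyl 4-hydroxylase genes, whose products make the hydroxyproline that carries the sugars, 2 were expressed and 0 passed 2-fold (median 0.51), with P4H5 at 6.92 and 11.6 FPKM, P4H2 at 7.85 and 10.2 FPKM and P4H13 at 0.0572 FPKM and a listed 0. Of 19 glycosyltransferase and related genes 14 were expressed and 0 passed 2-fold (median 0.01). The hydroxyproline galactosyltransferase gene AT4G21060 (GALT2) was at 4.48 and 3.09 FPKM, the glucuronosyltransferase gene AT5G39990 (GlcAT14A) at 9.48 and 12.4 FPKM, AT1G27930, not counted as expressed, at 0.309 and 0.726 FPKM (plain ratio 2.35), and the galactosyltransferase gene AT1G32930 (GALT31A), the highest of the list, at 16.3 and 19.7 FPKM. All 5 GPI anchor genes were expressed and 0 passed 2-fold (median 0.10), with SETH2 at 8.09 and 5.70 FPKM, PNT1 at 2.59 and 3.81 FPKM, AT5G14850 (APTG1) at 5.57 and 4.49 FPKM and AT1G08750 (GPI8), the highest by mean level, at 7.06 and 7.61 FPKM.

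**Figure D5:**
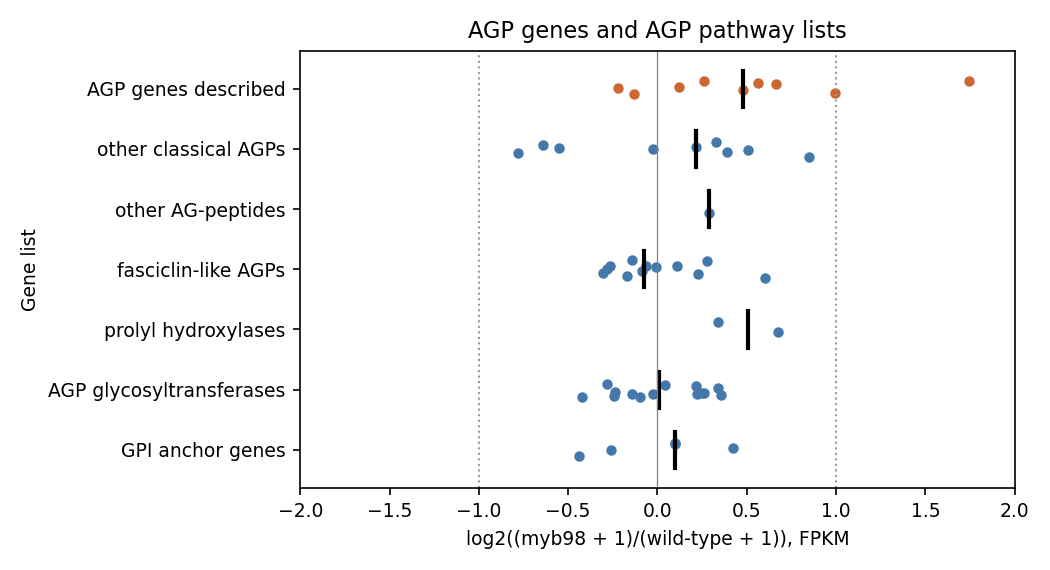
Log2 ratio of myb98 to wild-type (FPKM + 1) for the expressed genes among the AGP genes described and in the lists of other AGPs, fasciclin-like AGPs, modifying enzymes and GPI anchor genes (no cell type markers), 1 point per gene, with the median as a black bar and dotted lines at 2-fold. AGP15, at 1.74, is the only point drawn beyond a dotted line, and AGP22, at 0.99, lies just inside it.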

How the data were processed

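The authors' deposited table gives 1 FPKM value per gene and library. Per the submitters' processing notes, TopHat2 2.0.14, Cuffdiff 2.2.1 and the TAIR10 build were used. Annotation version, strandedness and any scaling of one library to the other were not given in the sources used here. No unit stands in the file, and FPKM was inferred from its values and from the tools named. Of 35548 identifiers 33557 had values, and 32810 of these matched the RefSeq annotation of TAIR10.1, from which names, coordinates, lengths and sequences were read. Fragment numbers are estimates, from genes with 1 transcript of at least 1500 nt, and assume the RefSeq lengths.

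Computed here, with Python 3.11.15 and pandas 2.3.3, were log2 ratios with a pseudocount of 1, ranks, shares, list counts, and the median ratio of the 500 genes nearest in length. A pseudocount understates the ratio of low genes. The length step was checked on simulated data, with 4-fold changes put into genes at a mean of 20 FPKM or more. Smaller changes, and changes in lower genes, were not simulated. Coding sequences were aligned with Biopython 1.88 and transcripts searched with BLAST 2.17.0. Codons, not proteins, were analysed, and 1 of the codon runs is not reported here. With 1 library per genotype no test was made, and size rules of 2-fold and 4-fold describe genes. All 10 genes are named, with the 3 largest log2 ratios and the highest level of each AGP pathway list. That rule does not cover the cell type markers, where genes were picked for naming with their values known. The genes and lists were chosen with earlier results of these data known. Other pseudocounts, scalings, filters and the length step were tried.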

Additional observations from a re-analysis of the deposited data

How the results depend on the processing

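For single genes 6 other settings were tried (pseudocounts of 0.1, 5 and none, scaling by the median or the upper quartile, and subtraction of the length median). A pseudocount cannot change the direction of a gene, and the scalings were too small to, so only the length step could. After the length step 8 of the 10 genes kept their direction. AGP14 and AGP21 were above 0 except against genes of their transcript length, at -0.37 and -0.29. AGP15 ranged from 1.53 to 1.75 and AGP22 from 0.29 to 2.89, the latter set by the pseudocount, since its wild-type level is below 1 FPKM. The median of the expressed genes, 0.48, was 0.29 with a pseudocount of 5, 0.14 after subtraction of the length median, and 0.37 both with a filter of 5 FPKM (8 genes) and with no filter (10 genes). With a pseudocount of 0.1 or none, AGP22 passed both size rules, so 1 gene rather than 0 passed 4-fold and 2 rather than 1 passed 2-fold. The ratio of summed FPKM, 1.95, was 1.12 without AGP15. The scalings changed myb98 against wild-type by 0.0003 (median) and 0.0011 (upper quartile) on the log2 scale. Leaving out a replicate was not possible with 1 library per genotype. No paired analysis was possible because each genotype has 1 library. AGP14 and AGP22 rest on few fragments.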
